A study of Cricetulus griseus with 19 samples.

Results

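The genes described here are Tuba1b and Tuba1c, which encode alpha-tubulins, in Chinese hamster cells engineered to regulate the size of their own population. They were taken as the transcript targets whose RefSeq accession belongs to Tuba1b or Tuba1c, and they were chosen by their higher levels under paradoxical feedback, with no comparison group named. Each gene matched 1 target, so 2 of the 46718 targets in the files are members. Only 334 targets could be given the symbol of a protein-coding gene, and 4 of these were other tubulins, all of them beta-tubulins.

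Microtubules are hollow polymers of a heterodimer made of 1 alpha-tubulin and 1 beta-tubulin, and they carry intracellular transport and build the mitotic spindle. Mammals have several genes for each partner, whose proteins are close to identical and copolymerise. Tubulin is folded by the cytosolic chaperonin, and the cell tunes its supply at the level of mRNA, since free dimers trigger the degradation of tubulin transcripts while they are being translated. Tuba1b is the alpha-tubulin most widely used in dividing cells, and Tuba1c is a close relative expressed beside it.

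Polyadenylated RNA was sequenced in 19 libraries of the Paradaux line, which was built in CHO-K1, an established line from Chinese hamster ovary. The groups were the parental line (1 library), long-term cultures with uncontrolled growth (4), long-term cultures under negative feedback (7) and long-term cultures under paradoxical feedback (7). In the negative feedback design a secreted signal curbs growth, and in the paradoxical design 1 signal drives both proliferation and death. Before RNA was taken, every culture spent 2 days kept below 80% confluence, and the labels name no drug or inducer. The labels give no genotype that differs between the groups, and they do not say how many clones the line holds or whether the numbered cultures were kept apart throughout. The p-values below therefore measure only how these samples scatter, and that scatter may be partly technical. Library totals ran from 9911262 to 13157431 estimated counts, so sampling error on both members is small beside the spread between cultures. None of 11 marker genes listed for the line or for other cell types had a named target, so the cell type could not be checked from its markers.

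The libraries under negative feedback fell into 2 sets by their share of counts on short targets, and this touches every value below. What sets them apart was not tested. The share of counts on short targets, those under 800 nt, was 14.1 and 13.3% in negative feedback cultures 1 and 2 and 6.12 to 7.22% in cultures 3 to 7. It was 12.2 to 13.4% in uncontrolled cultures, 8.50 to 12.4% under paradoxical feedback and 11.8% in the parental library. Tests that set negative feedback against uncontrolled or parental libraries are given with and without cultures 3 to 7. The labels do not give this split, which was seen in these same data. P-values from fits that leave out either set are therefore not independent evidence.

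Neither member could be counted free of similar sequences. The Tuba1b target is 1626 nt long and the Tuba1c target 1578 nt. An estimated count is fractional where reads match several targets and are divided among them by the quantifier. The Tuba1c count was not whole in any library, and that of Tuba1b was whole in 2 libraries, where its size left only 1 printed decimal. No single one of 26303 other targets with fractional counts, and no pair of them, brought Tuba1b, Tuba1c or their sum to whole numbers in all 19 libraries. The same search restored 2442 of 14286 fractional targets of lower count with 1 partner. Which targets the members shared reads with was therefore not resolved. The annotation table places another alpha-tubulin gene, Tuba1a, between both members, with 1 gene between Tuba1b and Tuba1a and 1 between Tuba1a and Tuba1c. No target carried the accession that the table gives for Tuba1a, and reads from it may count toward either member. The values below are those of the 2 targets, not of all transcripts of each gene.

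Tuba1b, the more abundant member, is given in counts-per-million (CPM) after scaling of the libraries by the trimmed mean of M-values (TMM). In uncontrolled cultures 1 to 4 it stood at 634, 672, 784 and 767 CPM, and in the parental library at 1006 CPM. Under negative feedback it lay between 729 and 2094 CPM with a median of 1471 CPM. Under paradoxical feedback it lay between 1003 and 2819 CPM with a median of 2359.8 CPM.
Negative feedback cultures 1 and 2 read 784 and 729 CPM and stood apart from cultures 3 to 7 with 1449 to 2094 CPM. The former lie among the uncontrolled cultures and the latter all lie above the parental library. Paradoxical feedback cultures 1, 3, 5 and 6 were the only libraries above all negative feedback cultures. Culture 4 of that group was the lowest of it and sat beside the parental library.

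Tuba1c followed the same division of libraries. In uncontrolled cultures 1 to 4 it was at 105, 131, 115 and 148 CPM, and in the parental library at 215 CPM. Under negative feedback its lowest, median and highest values were 127, 460 and 683 CPM. Under paradoxical feedback they were 295, 583 and 665 CPM.
In negative feedback cultures 1 and 2 it read 135 and 127 CPM, inside the uncontrolled range, whereas cultures 3 to 7 spanned 444 to 683 CPM. Culture 3 of the negative feedback group held the highest Tuba1c value of all 19 libraries, whereas the highest Tuba1b value was that of paradoxical feedback culture 5. Paradoxical feedback culture 4 was again the lowest of its group.

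**Figure D1:**
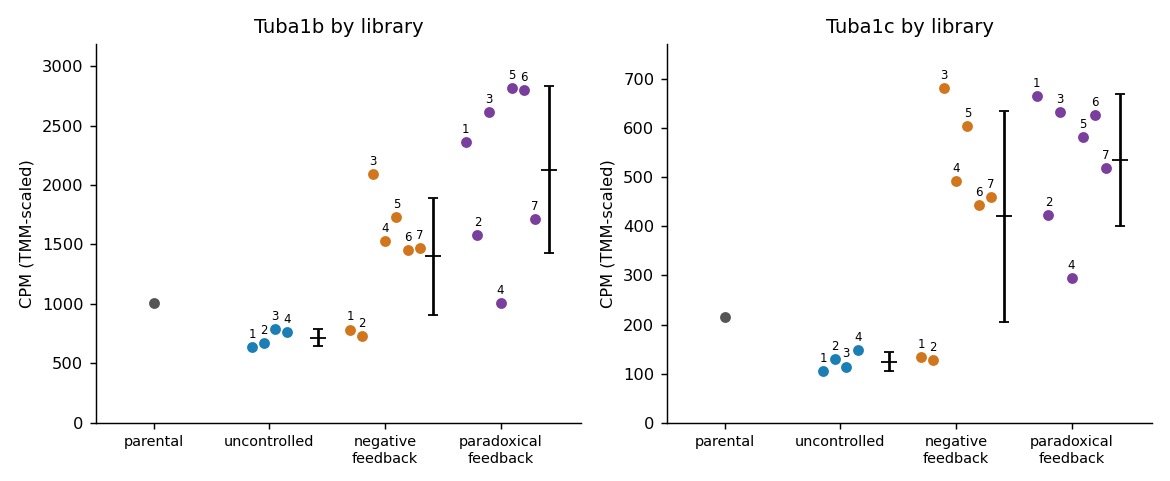
Tuba1b (left) and Tuba1c (right) in TMM-scaled CPM for each of the 19 libraries, 1 point per library, numbered by replicate, with black bars for the group mean ± SD. Negative feedback cultures 1 and 2 lie with the uncontrolled cultures for both genes, and all 7 paradoxical feedback cultures lie above all 4 uncontrolled cultures.

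Ordered by group mean, Tuba1b went from 714 ± 72.7 CPM in uncontrolled cultures (SD, n = 4) through 1006 CPM in the parental library and 1399 ± 491 CPM under negative feedback (SD, n = 7) to 2127 ± 701 CPM under paradoxical feedback (SD, n = 7). For Tuba1c the same order held in CPM, at 125 ± 18.7 CPM (SD, n = 4), 215 CPM, 421 ± 215 CPM (SD, n = 7) and 535 ± 134 CPM (SD, n = 7). On a scale per length, given below, the Tuba1c means of the feedback groups were nearly equal and their medians stood in the reverse order. The parental library lay above all 4 uncontrolled cultures for both genes, but it is a single library with no spread of its own. It also lay within the range of the negative feedback cultures for both. The 2 feedback groups overlapped for both genes, so these neighbours in the order are not separated by their spread. In bulk RNA a change in the kinds of cells in a culture and a change in RNA per cell cannot be told apart.

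Since high levels under paradoxical feedback chose these genes, both comparisons of that group are a description only. The fitted log2 fold change was 1.57 ± 0.31 (SE) for Tuba1b and 2.10 ± 0.42 (SE) for Tuba1c, which correspond to 2.98-fold and 4.29-fold. All 7 paradoxical feedback cultures lay above all 4 uncontrolled cultures for both members. Of all 28555 tested targets, 7.94% were separated in that direction in this comparison. Both members were called by edgeR, against 6.43% of all tested targets called in either direction, 4.93% called higher, 1.5% called lower and 19.7% of the 284 named coding targets called higher. Nothing is read from these counts, because the same values chose the genes. Neither member was called when uncontrolled culture 1 or 2 was left out, at log2 fold changes of 1.52 and 1.54 for Tuba1b and 2.03 and 2.12 for Tuba1c.
Between both feedback conditions, Tuba1b was 0.60 ± 0.25 (SE) higher on the log2 scale under paradoxical feedback, and Tuba1c 0.35 ± 0.32 (SE) higher. Of the paradoxical feedback cultures, 4 of 7 lay above every negative feedback culture for Tuba1b and 0 of 7 for Tuba1c. Over all tested targets 0.399% had every paradoxical feedback culture above every negative feedback culture, and 0.27% were called, 0.165% higher and 0.105% lower. These differences depend on which negative feedback cultures are counted. Against cultures 1 and 2 alone they were 1.50 for Tuba1b and 2.04 for Tuba1c, and against cultures 3 to 7 alone 0.37 and 0.0017. In transcripts-per-million (TPM), a scale per length, cultures 3 to 7 under negative feedback reached 1458 to 2201 TPM of Tuba1b and the paradoxical feedback cultures 914 to 2051 TPM. On that scale the order of the high libraries in both feedback groups was thus not the one seen in CPM. Tuba1c averaged 444.89 TPM under negative and 444.93 TPM under paradoxical feedback, with medians of 499 and 462 TPM.

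Comparison of negative feedback with uncontrolled growth used none of the paradoxical feedback libraries as a group compared. The uncontrolled or the negative feedback libraries, or both, may have served as the reference when the genes were chosen, so its tests are not fully independent of that choice. Tuba1c rose, with a log2 fold change of 1.76 ± 0.41 (SE) and an adjusted p of 0.0237 by edgeR. Tuba1b stood 0.97 ± 0.30 (SE) higher on the log2 scale and missed the threshold, with an adjusted p of 0.0508 by edgeR. Over all tested targets 9.76% were called in this comparison, 8.65% higher and 1.11% lower, and among named coding targets 28.2% were called higher. The median log2 fold change was 0.041 over all tested targets and 0.44 over named coding targets. The call of 1 member of 2 is read against that share of named targets.
Of the negative feedback cultures, 5 of 7 lay above every uncontrolled culture for both members, and these were cultures 3 to 7. Neither member was separated between the groups, as 1.67% of all targets were in this direction. With these 5 left out, Tuba1c was at 0.072 and Tuba1b at 0.085 on the log2 scale, with an edgeR adjusted p of 1 for each. Without cultures 1 and 2 the log2 fold change was 2.09 for Tuba1c (edgeR adjusted p = 4.52e-06) and 1.19 for Tuba1b (edgeR adjusted p = 0.00155). Both members follow the split itself, so leaving out their low cultures makes small p-values likely, and nothing is read from them. The Tuba1c call was lost when uncontrolled culture 1, 2, 3 or 4 was left out, with edgeR adjusted p of 0.0771, 0.0774, 0.0703 and 0.0525, while its log2 fold change stayed between 1.68 and 1.85. Tuba1b passed without negative feedback culture 1 or 2, or without paradoxical feedback culture 4, with edgeR adjusted p of 0.0161, 0.0155 and 0.0347. The share of all targets called moved more than the members did. Without uncontrolled culture 1, 2, 3 or 4 only 14, 7, 7 or 15 targets were called in place of 2787, without negative feedback culture 1 or 2 the count was 6938 or 6335, and without culture 3, 4, 5, 6 or 7 it was 1257, 965, 1100, 1170 or 1477.

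**Figure D2:**
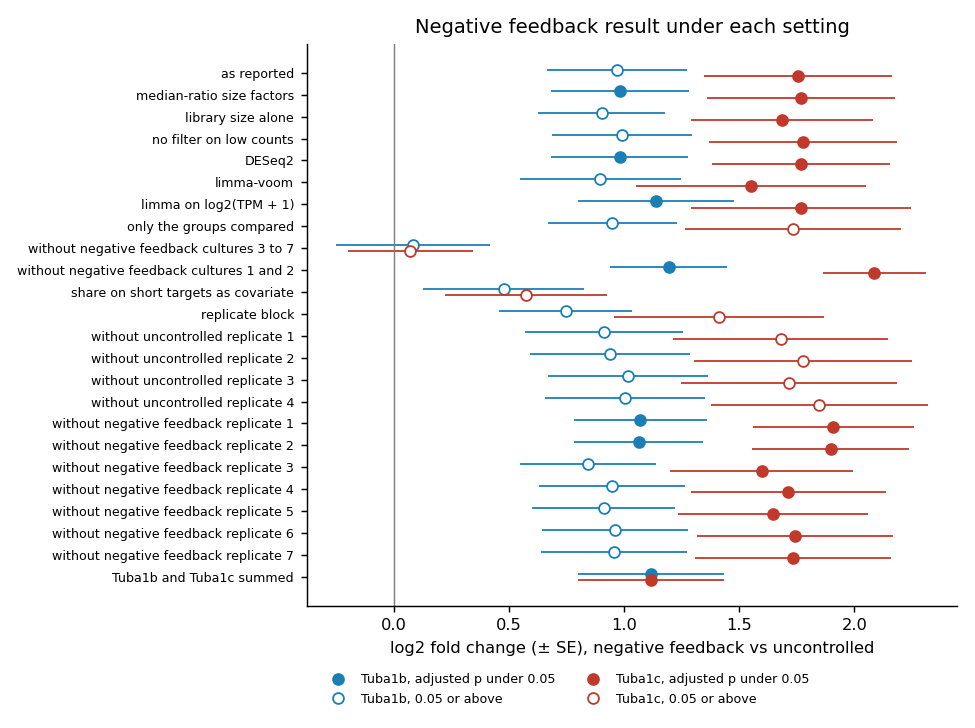
Log2 fold change ± SE of Tuba1b (blue) and Tuba1c (red) for negative feedback against uncontrolled cultures, under the reported setting and its alternatives, with filled points for an adjusted p under 0.05. All values are above 0, and both drop to 0.085 and 0.072 without negative feedback cultures 3 to 7. The setting that sums both members plots the same value, 1.12, for each.

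The share of counts on short targets moved with the same libraries. In the plot of CPM against that share, negative feedback cultures 3 to 7 had the lowest shares and high levels of both members, and the uncontrolled cultures and negative feedback cultures 1 and 2 had high shares and low levels. The paradoxical feedback cultures broke this pattern, since cultures 5 and 6 had shares of 12.4 and 11.4% and Tuba1b levels of 2819 and 2798 CPM. With the share as a covariate in the fit, the log2 fold change under negative feedback was 0.48 ± 0.35 (SE) for Tuba1b and 0.57 ± 0.35 (SE) for Tuba1c, with edgeR adjusted p of 0.909 and 0.832. For paradoxical feedback the same fit gave 1.33 ± 0.30 (SE) and 1.53 ± 0.31 (SE). A covariate common to all groups does not follow a pattern that differs between them, so these values are not effects at a fixed share. Within negative feedback the share and the 2 sets of cultures cannot be told apart.

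**Figure D3:**
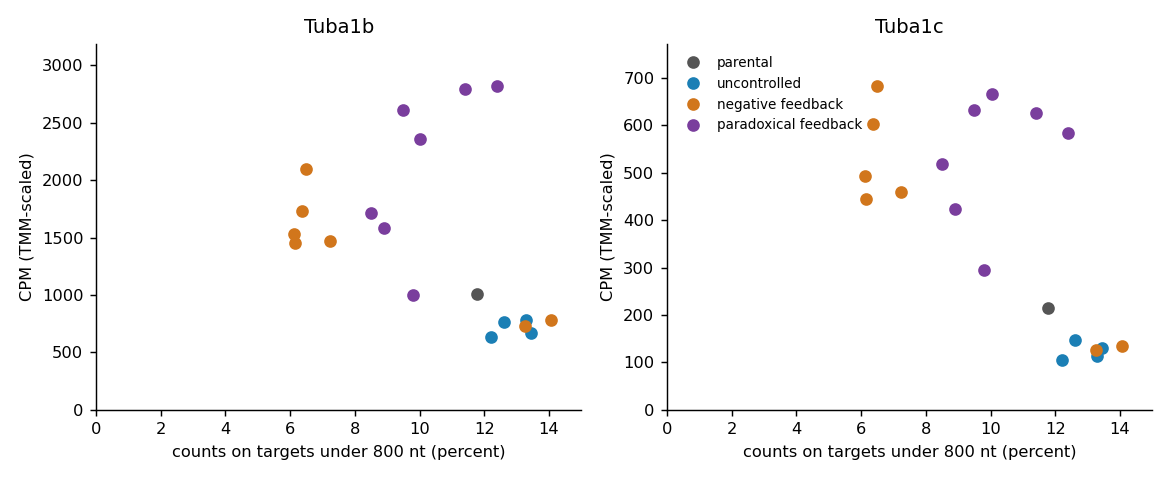
CPM of Tuba1b (left) and Tuba1c (right) against the percentage of a library's counts on targets under 800 nt, 1 point per library, coloured by group. Negative feedback cultures 3 to 7 lie at 6.12 to 7.22% with high levels, whereas paradoxical feedback cultures 5 and 6 combine high levels with shares of 12.4 and 11.4%.

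In the comparison of negative feedback with the parental line, the negative feedback libraries may likewise have served as the reference in the choice of the genes. The log2 fold change was 0.48 ± 0.52 (SE) for Tuba1b and 0.97 ± 0.70 (SE) for Tuba1c, and neither passed, with edgeR adjusted p of 0.831 and 0.830. Of all targets 0.021% were called in this comparison, and 1012 had an unadjusted p under 0.05. The 7 negative feedback cultures lay on both sides of the parental library, 5 above it and cultures 1 and 2 below it for both members. Without cultures 3 to 7 the log2 fold changes turned to -0.42 for Tuba1b and -0.72 for Tuba1c. Without cultures 1 and 2 Tuba1c was at 1.30 with an edgeR adjusted p of 0.0435. The test assumes that the single parental library would vary like the cultures. Left out one at a time, negative feedback cultures 1 and 2 moved the count of called targets from 6 to 15 and 12.

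Levels of both genes can be set side by side only per length. In TPM, Tuba1b stood at 509 to 642 in uncontrolled cultures, 560.5 to 2201 under negative feedback and 914 to 2051 under paradoxical feedback, with 816 in the parental library. Tuba1c stood at 90.0 to 129 TPM in uncontrolled cultures, 279 to 553 TPM under paradoxical feedback and 181 TPM in the parental library. Under negative feedback it was at 99.98 and 101.7 TPM in cultures 1 and 2, inside the uncontrolled range, and at 473 to 745 TPM in cultures 3 to 7. Among all 46718 targets ranked by TPM, Tuba1b ranked between 210 and 267 in uncontrolled cultures, between 62 and 240 under negative feedback and between 79 and 149 under paradoxical feedback. Tuba1c ranked between 1063 and 1557, between 169 and 1335 and between 262 and 524.
Tuba1b was thus the more abundant target in all 19 libraries, but its lead was not constant. Its share of the summed TPM of both members was 84.7 ± 1.74% in uncontrolled cultures (SD, n = 4), 77.7 ± 4.88% under negative feedback (SD, n = 7) and 78.8 ± 2.36% under paradoxical feedback (SD, n = 7), with 81.9% in the parental library. Under negative feedback the share was 84.9 and 84.7% in cultures 1 and 2, inside the uncontrolled range of 83.2 to 86.8%, and 73.5 to 75.9% in cultures 3 to 7. Negative feedback minus uncontrolled was -6.94 percentage points, with p = 0.0394 by exact two-sided permutation of the 11 libraries. Without cultures 3 to 7 the difference was 0.118 points (exact p = 1, the smallest possible being 0.0667), and without cultures 1 and 2 it was -9.76 points (exact p = 0.00794, the smallest possible). The p passed 0.05 when any 1 uncontrolled culture, or negative feedback culture 3, 4, 5, 6 or 7, was left out, at 0.0524 to 0.133 by the same exact test. Under paradoxical feedback all 7 shares (76.1 to 82.3%) lay below those of the uncontrolled cultures, which is given without a test. Because reads were divided among similar targets, the share also carries any change in how that division fell, which was not tested.

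**Figure D4:**
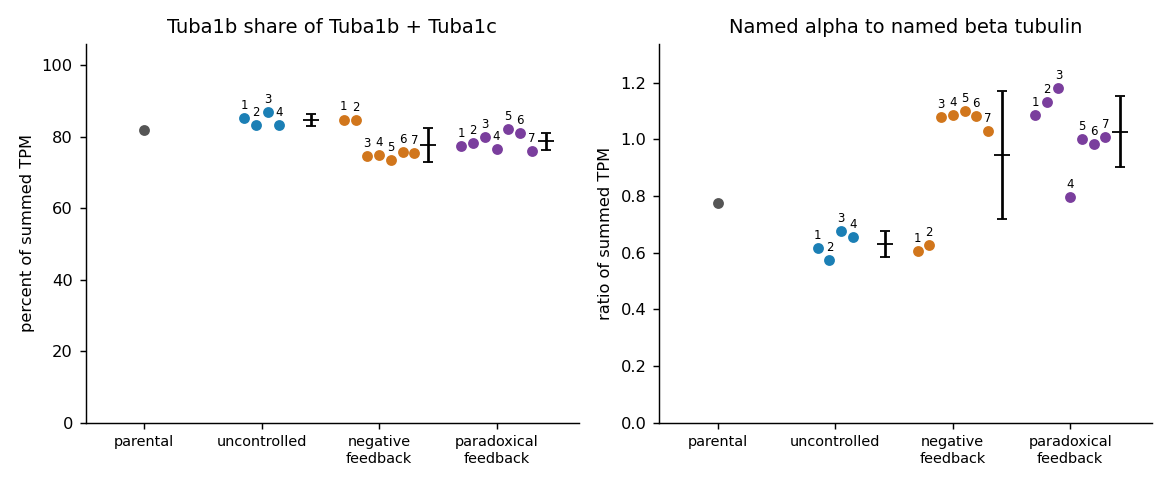
Share of Tuba1b in the summed TPM of Tuba1b and Tuba1c (left, percent) and ratio of the summed TPM of both alpha-tubulins to that of the named beta-tubulins (right), 1 point per library numbered by replicate, with black bars for the group mean ± SD. Negative feedback cultures 3 to 7 have the lowest Tuba1b shares, at 73.5 to 75.9%, and ratios of 1.03 to 1.10, against 0.573 to 0.676 in uncontrolled cultures.

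The beta-tubulins are the partners of the members in the dimer, and 3 of 19 tubulin symbols in a list of the family other than the members had a named target. These were Tubb, the main beta-tubulin of proliferating cells, with 2 targets, and Tubb4b and Tubb6, 2 other widely expressed beta-tubulins. All 4 targets had shared reads. The Tubb6 count was nonetheless whole in 15 of the 19 libraries, against 1 for Tubb4b and 1 for the more abundant Tubb target. The second Tubb target held between 0 and 17.8 estimated counts in every library and is not described further.
For uncontrolled, negative and paradoxical feedback cultures in turn, the main Tubb target averaged 1641 ± 163, 2199 ± 398 and 2967 ± 898 CPM (SD, n = 4, 7 and 7). Tubb4b was at 252 ± 12.8, 374 ± 109 and 563 ± 151 CPM in the same groups. Tubb6 was at 30.2 ± 2.62, 80.6 ± 37.2 and 101 ± 27.9 CPM.
The same cultures were low for these genes. Under negative feedback Tubb6 read 30.8 and 31.4 CPM in cultures 1 and 2 where the others held 84.1 to 129 CPM, and Tubb4b read 258 and 231 CPM where the others held 372 to 559.7 CPM.

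Under negative feedback 1 of the 4 beta-tubulin targets was called higher and 0 lower, beside 8.65% of all targets and 28.2% of named coding targets called higher, with a median log2 fold change of 0.50, or 0.57 over the 3 targets above 3 counts on average. Tubb6 rose by 1.42 ± 0.36 (SE, edgeR adjusted p = 0.026). Its fit with single cultures left out is not given here. Without uncontrolled culture 1, 2, 3 or 4 only 14, 7, 7 or 15 of all tested targets were called. Tubb4b was at 0.57 ± 0.23 (SE) and Tubb at 0.42 ± 0.21 (SE), with edgeR adjusted p of 0.108 and 0.174. Without negative feedback cultures 3 to 7, 0 of the 4 were called, the median was 0.023 and Tubb6 was at 0.047 ± 0.28 (SE, edgeR adjusted p = 1). That fit called only 13 of all tested targets, so nothing is read from the count of 0. Without cultures 1 and 2, Tubb6 was at 1.72 ± 0.22 and Tubb4b at 0.74 ± 0.20 (SE), with edgeR adjusted p of 2.43e-05 and 0.00805, and Tubb at 0.50 ± 0.22 (SE, edgeR adjusted p = 0.083). In that fit 11460 of all tested targets were called. Under paradoxical feedback 3 of the 4 were called higher and 0 lower against uncontrolled cultures, with log2 fold changes of 0.85 ± 0.21 for Tubb, 1.16 ± 0.24 for Tubb4b and 1.74 ± 0.36 for Tubb6 (SE). Of all targets 4.93%, and of named coding targets 19.7%, were called higher there. Both comparisons share the uncontrolled cultures, and the latter holds the group that chose the members, so nothing is read from its counts. The median log2 fold change under paradoxical feedback was 1.45 over the 4 targets and 1.16 over the 3 above 3 counts, against 0.024 over all tested targets and 0.55 over named coding targets. Between the feedback conditions 0 of the 4 were called by edgeR, beside 0.27% of all targets called. Of the 4, 3 (both Tubb targets, of which the second is near 0, and Tubb4b) had an unadjusted p under 0.05, as did 5033 of all 28555 targets.

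**Figure D5:**
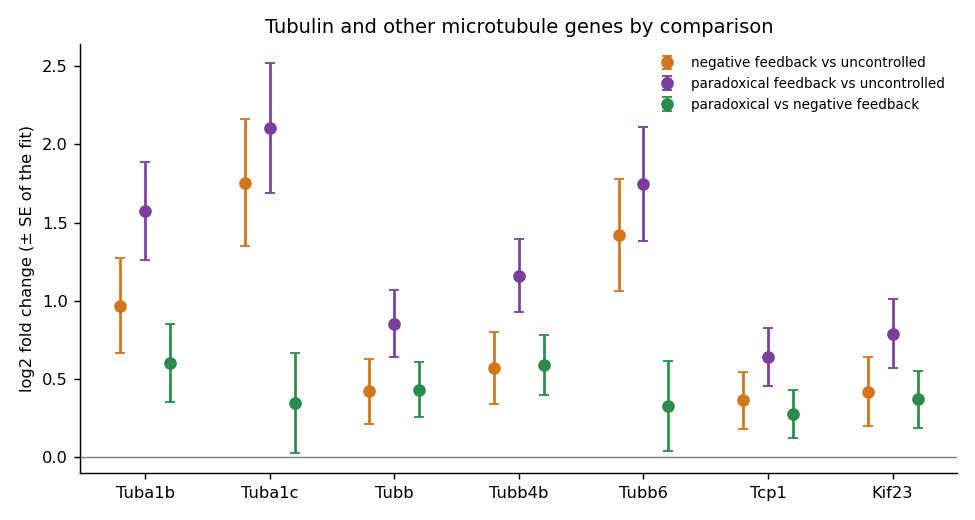
Log2 fold change ± SE of the fit for both alpha-tubulins, the 3 beta-tubulins with measurable targets, the chaperonin subunit Tcp1 and the kinesin Kif23 in 3 comparisons. Tuba1c and Tubb6 have the largest values of these genes against uncontrolled cultures, at 1.76 and 1.42 under negative and 2.10 and 1.74 under paradoxical feedback.

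Per length, the named alpha-tubulins can be set against the named beta-tubulins, with the reservation that the alpha-tubulins are the members and were chosen for being high under paradoxical feedback. The ratio of summed TPM was 0.630 ± 0.0454 in uncontrolled cultures (SD, n = 4), 0.944 ± 0.225 under negative feedback (SD, n = 7) and 1.03 ± 0.126 under paradoxical feedback (SD, n = 7), with 0.776 in the parental library. In negative feedback cultures 1 and 2 it was 0.607 and 0.626, inside the uncontrolled range of 0.573 to 0.676, and in cultures 3 to 7 it was 1.03 to 1.10. The lowest ratio under paradoxical feedback, 0.795, was that of culture 4, and the others were at 0.985 to 1.18. These ratios cover only targets with a symbol, so they do not give the balance of all alpha- and beta-tubulin mRNA. Named tubulins together made up 0.160 to 0.195% of all TPM in uncontrolled cultures, 0.173 to 0.567% under negative feedback and 0.269 to 0.494% under paradoxical feedback.

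Few other genes of the microtubule system had a named target. Of 23 genes for tubulin folding and its autoregulation, only Tcp1 did, a subunit of the chaperonin that folds tubulin and actin. For uncontrolled, negative and paradoxical feedback cultures Tcp1 averaged 443 ± 44.5, 569 ± 70.7 and 691 ± 179 CPM (SD, n = 4, 7 and 7). It did not pass under negative feedback, at 0.36 ± 0.18 (SE, edgeR adjusted p = 0.179), and its log2 fold change under paradoxical feedback was 0.64 ± 0.18 (SE), given as a description. Without negative feedback cultures 3 to 7 it was at 0.11 ± 0.27 (SE, edgeR adjusted p = 1). Paradoxical feedback culture 4, low for both members, had the lowest Tcp1 level of all libraries at 371 CPM.
Of 32 microtubule motors 2 had a target. Of these, 0 of 2 were called, beside 8.65% of all targets and 28.2% of named coding targets called higher. Nothing is read from a count over 2 targets under negative feedback. Kif23, a kinesin of the midzone of the dividing cell with whole counts, was at 0.42 ± 0.22 (SE, edgeR adjusted p = 0.194) there and at 0.79 ± 0.22 (SE) under paradoxical feedback, the latter as a description. Without negative feedback cultures 3 to 7 Kif23 was at -0.040 ± 0.26 (SE, edgeR adjusted p = 1), and without cultures 1 and 2 at 0.55 ± 0.21 (SE, edgeR adjusted p = 0.0476). Kif2c, a kinesin that depolymerises microtubules, shared reads with other targets and was listed at 0 in uncontrolled cultures 1 and 2 and at 7.36 and 2.87 CPM in cultures 3 and 4. It held 4.28 to 45.3 CPM under negative and 13.5 to 40.4 CPM under paradoxical feedback. Its log2 fold change under negative feedback was 3.42 ± 1.08 (SE, edgeR adjusted p = 0.053), which was 1.59 ± 1.29 (SE, edgeR adjusted p = 1) without cultures 3 to 7 and 3.76 ± 1.02 (SE, edgeR adjusted p = 0.00845) without cultures 1 and 2. Under paradoxical feedback it was 3.46 ± 1.08 (SE), as a description. Of 13 tubulin-modifying enzymes and 27 microtubule-binding proteins none had a target. Among 26 genes of other cytoskeletal filaments only Actb did, and its target held between 0 and 15.9 estimated counts, so it does not give the level of beta-actin.

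The named targets most like each member were found by Pearson's r of log2 CPM over the 18 long-term libraries, among 241 named targets of other genes whose log2 CPM averaged 1 or more. The libraries fall into separate sets, so r mainly records which of them were high together, and it is given as a description with no p. Both members had an r of 0.951 with each other, and 0.904 after each group's mean was removed.
Tuba1b was most like Pcna, the sliding clamp of DNA replication, with an r of 0.970 and 0.928 after centring. Stip1, a co-chaperone that joins Hsp70 and Hsp90, followed with 0.960, then Tubb4b with 0.959, the cytosolic Hsp70 protein Hspa8 with 0.953 and the thymidine kinase Tk1 with 0.941.
Tuba1c was most like Adsl, an enzyme of purine synthesis, with an r of 0.974 and 0.946 after centring. The heat shock protein Hsph1 followed with 0.970, then Tubb6 with 0.963, the peroxisomal import factor Pex19 with 0.961 and Pcna with 0.959.
The first 5 of each member thus had 1 gene in common, Pcna, and each held 1 beta-tubulin. For uncontrolled, negative and paradoxical feedback cultures in turn, Pcna averaged 88.8 ± 23.6, 180.5 ± 69.0 and 259 ± 70.4 CPM (SD, n = 4, 7 and 7) and Adsl 65.5 ± 8.49, 115 ± 34.2 and 126 ± 18.6 CPM.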

How the data were processed

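Per the submitters' processing notes, reads were trimmed with Trim Galore and quantified with kallisto. The sources used here give no version, genome build or index annotation. The deposited estimated counts are reads assigned to each transcript target, divided where a read matches several targets. The deposited TPM values, per the file headers, stand beside an effective length for each target. Symbols came from the RefSeq gene table of assembly CriGri-PICRH-1.0, matched by accession (528 targets). Its coordinates were used only for the order of the alpha-tubulin genes. Estimated counts were rounded, filtered with filterByExpr (28555 targets left, both members among them) and scaled by TMM. The quasi-likelihood test of edgeR 4.0.16 (R 4.3.3) was run on 1 model of all 19 libraries that holds a term for each group. P-values were adjusted by Benjamini-Hochberg over all tested targets and called under 0.05. The SE is the log2 fold change divided by the square root of F. The procedure was tested on simulated data with 1 spread for all targets and no separate sets of cultures within a group. That test therefore does not cover the split within negative feedback. Single values were compared by exact two-sided permutation over libraries.

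The members and gene lists were chosen with earlier results of these data known. Named genes are the members, tested members of the tubulin, folding and modification lists, members of the other lists called in any comparison, the 5 named targets most like each member, and any target found to share reads with one. Actb and Kif2c, outside this rule, were named after their values were seen. Fits of the other tubulin and microtubule genes without sets of negative feedback cultures were added after seeing the data. Alternatives used DESeq2 1.42.0, limma 3.58.1 (voom, and log2 TPM with a pseudocount of 1), other scalings and filters, left-out libraries, covariates and a replicate block. No 2 libraries of a group agreed within sampling noise.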

Additional observations from a re-analysis of the deposited data

How the results depend on the processing

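Since the same values chose the genes, the paradoxical feedback comparison stays a description, and nothing is read from calls kept or lost in it. Under paradoxical feedback both members stayed above uncontrolled cultures in all 30 alternatives, which include the sum of both members. The log2 fold changes were 1.33 to 1.70 for Tuba1b and 1.53 to 2.21 for Tuba1c. Both lost their edgeR call there with the replicate block (1.37 and 1.90) and without uncontrolled culture 1 or 2. The Tuba1c value moved by more than the spread between replicates with the short-target share as covariate (1.53). The sum of both members, a different quantity chosen after seeing the data, stood at 1.67. Under negative feedback Tuba1b also passed with median-ratio size factors (0.98), DESeq2 (0.98), limma on log2 TPM (1.14) and without cultures 1 and 2 (1.19). The sum of both members passed at 1.12, which is not a call of Tuba1b alone. Tuba1c lost its call when the model held just those 2 groups (1.73), without cultures 3 to 7 (0.072), with the covariate (0.57) and with the replicate block (1.41). With 1 replicate left out, the log2 fold change under negative feedback was 0.85 to 1.07 for Tuba1b and 1.60 to 1.91 for Tuba1c. The share of Tuba1b differed by -8.13 to -6.21 points with 1 replicate left out and by 0.118 points without cultures 3 to 7. Between feedback conditions, leaving out cultures 3 to 7 gave 1.50 for Tuba1b and 2.04 for Tuba1c. Against the parental library that setting reversed both members, to -0.42 and -0.72, and without cultures 1 and 2 Tuba1c passed at 1.30. The cause of these changes was not tested.

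Replicate numbers are shared between groups, and 1 of 15 same-numbered pairs had a correlation of deviations from group means over 0.1 (range -0.157 to 0.107). The split within negative feedback enters these deviations, so they cannot decide whether same-numbered samples are linked. With the replicate block, edgeR called 4, 3, 0 and 0 targets when uncontrolled cultures were the reference for negative and then for paradoxical feedback, when paradoxical was set against negative feedback, and when negative feedback was set against the parental line, in place of 2787, 1835, 77 and 6. In the same order the count was 6451, 4838, 1798 and 478 by DESeq2, 10, 4956, 0 and 2 with only the groups compared, 13, 4926, 2454 and 16 without negative feedback cultures 3 to 7, 11460, 5675, 5937 and 2618 without cultures 1 and 2, and 6, 1145, 697 and 10 with the covariate. By limma-voom it was 5039, 2589, 297 and 103, by limma on log2 TPM 6811, 2428, 31 and 51. For paradoxical against negative feedback it was 11 with median-ratio size factors, 42 by library size alone and 2 with no filter. With 1 replicate left out the counts ran from 7 to 6938, 127 to 3204, 0 to 989 and 6 to 15. By limma-voom 1637 targets were higher and 3402 lower under negative feedback, against 2470 and 317, and 1082 higher and 1507 lower under paradoxical feedback, against 1408 and 427. No set of read-sharing targets was found, so summing over it was not run.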
